A study of Mus musculus with 3 samples.

Results

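The genes described here are 36 markers used to recognise astrocytes and neurons, 14 and 22 in number, among the 46983 gene rows of a count table. They form a fixed list of gene names, and each matched exactly 1 row by its symbol. The table came from 3 libraries of 1 group: cells of mouse leptomeninges, the thin pial and arachnoid membranes on the brain surface, sorted by flow cytometry from vehicle-treated mice and called a pia-enriched fraction. The vehicle's purpose, the sort markers, the strain, sex and age of the mice, and whether animals were pooled were not given in the labels. The libraries are numbered 1 to 3 as in the labels, and with 1 group there is no contrast between conditions.

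Astrocytes touch the pia with flattened endfeet, whose membranes carry the water channel aquaporin-4 in a complex with MLC1 and its partner HepaCAM. Neurons lie deeper, but their axons and those of peripheral nerves run through and along the meninges. Markers of either cell in a meningeal sort can therefore come from attached brain surface, from nerve, or from meningeal cells that use the same genes, and many so-called neuronal genes serve secretion or the cytoskeleton in other cells. In bulk RNA, fewer cells of a type and less RNA per cell cannot be told apart.

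Libraries 1, 2 and 3 held 21002860, 28704952 and 25338616 gene counts. Values are counts per 1000000 of the scaled library size (CPM) for comparison between libraries, and transcripts per 1000000 (TPM), which divide by exon length, for comparison between genes. A count of 0 allows up to 3 counts, or 0.152, 0.101 and 0.116 CPM in the 3 libraries; floors and 95% intervals (exact Clopper-Pearson) cover counting error only. Library 1 stood apart: of 14409 genes with enough counts to test, it was the highest library for 39.6% and the lowest for 40.4%. Its difference from the others followed base composition: with genes split by GC content into 10 equal classes, library 1 set against the average of the other two had a median log2 ratio of -1.27 in the lowest class and 0.41 in the highest. The sorted cells carried the defining transcripts of fibroblasts, with Col1a2 at 11071, 12570 and 10851 CPM and Mgp at 11816, 5049 and 8665 CPM.

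Of the 14 astrocyte genes, 12 had a mean of at least 1 CPM, and so did 16 of the 22 neuron genes. The same holds for 56.6% of the 25083 genes with a count anywhere in the table. A mean of at least 10 CPM was reached by 5 astrocyte and 7 neuron genes, against 36% of genes with a count. A mean of 100 CPM was reached by S100b alone, and by 1832 of the 25083 genes with a count. The median log2(CPM + 1) of the astrocyte genes was 2.53, 3.03 and 3.25 in libraries 1 to 3 (2.94 ± 0.36, SD, n = 3). The neuron genes had 2.12, 1.26 and 1.73 (1.70 ± 0.43, SD, n = 3), below the astrocyte genes in each library. The difference was 1.23 ± 0.72 (SD, n = 3), as small as 0.41 in library 1, and 0.33 when only members past the filter on low counts were used.

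**Figure D1:**
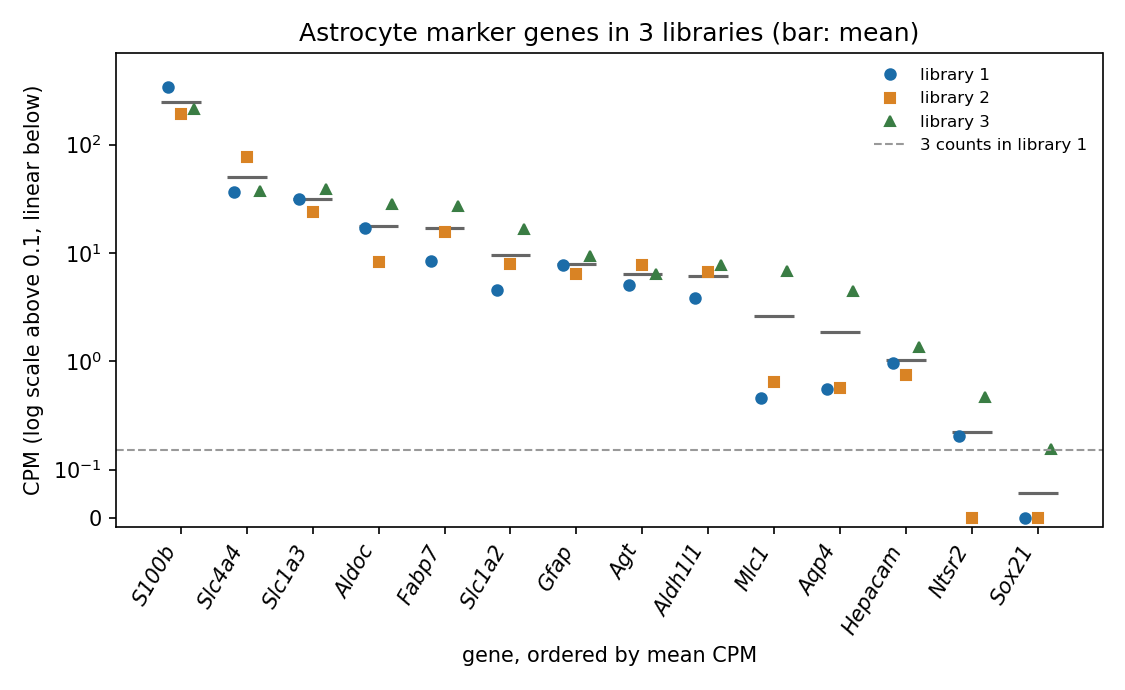
Each point is the CPM of an astrocyte marker gene in 1 library (log axis above 0.1, linear below), the bar is the mean, and the dashed line is the level of 3 counts in library 1. S100b stands above the rest at 191 to 338 CPM, and Mlc1 and Aqp4 have library 3 far above the other two.

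Of the endfoot genes, Aqp4 and Mlc1 were the least even of the astrocyte genes past the filter, and Hepacam was steadier. Aqp4, the water channel (ENSMUSG00000024411.9, chromosome 18, 15389496 to 15410982 in GENCODE M21 on GRCm38), had 11, 17 and 115 counts, or 0.556, 0.571 and 4.43 CPM. Its 95% intervals ran from 0.277 to 0.994 and 0.333 to 0.915 CPM in libraries 1 and 2, and from 3.66 to 5.32 in library 3, so that library 3 lay outside the counting error of the others. Mlc1, which encodes the membrane protein lost in a leukodystrophy with cysts (chromosome 15, 88955884 to 88979007), had 9, 19 and 177 counts, or 0.455, 0.638 and 6.82 CPM. Library 3 was 10.7-fold above library 2 for Mlc1 and 7.76-fold for Aqp4, while libraries 1 and 2 were close for both genes. Hepacam, the adhesion protein that holds MLC1 at the membrane, was low in all libraries at 0.960, 0.739 and 1.35 CPM, with library 3 only 1.83-fold above library 2.

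Gfap, the intermediate filament of astrocytes, was at 7.78, 6.38 and 9.37 CPM, with library 3 only 1.47-fold above library 2. The glial glutamate transporters differed from each other. Slc1a3 (GLAST) was at 31.7, 24.1 and 38.8 CPM, and Slc1a2 (GLT-1), the main glutamate transporter of the mature forebrain, at 4.55, 7.83 and 16.6 CPM. Per exon length Slc1a3 reached 11.3 ± 2.63 TPM and Slc1a2 2.31 ± 1.54 TPM (SD, n = 3), with Slc1a3 the higher by more than either spread. Slc4a4, a sodium bicarbonate cotransporter also used by many epithelia, followed another order, at 36.5, 77.3 and 36.9 CPM, highest in library 2.

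Of the metabolic enzymes, Aldh1l1, a folate enzyme used as a pan-astrocyte marker, was at 3.84, 6.69 and 7.67 CPM. Aldoc, the brain form of aldolase, was at 16.8, 8.30 and 28.5 CPM. Library 3 was highest for both, yet library 2 was the lowest for Aldoc and library 1 for Aldh1l1. Agt, the precursor of angiotensin, showed little spread at 5.05, 7.66 and 6.44 CPM. Fabp7, a lipid-binding protein of radial glia and other glia, was at 8.49, 15.7 and 27.1 CPM, lowest in library 1 and highest in library 3.

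S100b, a calcium-binding protein made by astrocytes and also by Schwann cells, was the most abundant of all 36 genes, at 338, 191 and 213 CPM. Per exon length it stood at 504 ± 104 TPM (SD, n = 3), against 43.1 ± 24.9 TPM for Fabp7, the next astrocyte gene. Its mean CPM exceeded that of 97.6% of genes with a count, and it was the 1 astrocyte gene past the filter that was highest in library 1. The receptor Ntsr2 and the transcription factor Sox21 were close to the floor. Ntsr2 had 4, 0 and 12 counts and Sox21 had 0, 0 and 4, so that library 3 held most of what was seen of both.

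By CPM the most abundant neuron genes were Snap25 and Syp, both of vesicle release. Snap25, a SNARE protein of exocytosis (ENSMUSG00000027273.13, chromosome 2, 136713453 to 136782428), was at 42.6, 67.2 and 58.6 CPM. Syp, the vesicle membrane protein synaptophysin, was at 34.9, 39.7 and 57.2 CPM, and Syt1, a calcium sensor of release, at 7.63, 6.42 and 6.25 CPM. The highest library exceeded the lowest by 1.58-fold for Snap25 and 1.64-fold for Syp, and by less for Syt1. Syn1, which tethers vesicles in nerve terminals, was lower at 1.77, 2.39 and 3.12 CPM. Per exon length Snap25 (25.9 ± 8.19 TPM) and Syp (26.2 ± 8.17 TPM) could not be told apart. Both lay above Syt1 (2.49 ± 0.116 TPM) and Syn1 (2.30 ± 0.771 TPM). The growth cone gene Gap43, at 40.0 ± 11.5 TPM, was above Snap25 and Syp in each library (SD, n = 3 each). Of the exon bases of Syp, 16.8% overlap an antisense gene that had 4, 11 and 23 counts of its own, and without strand the reads there cannot be assigned.

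**Figure D2:**
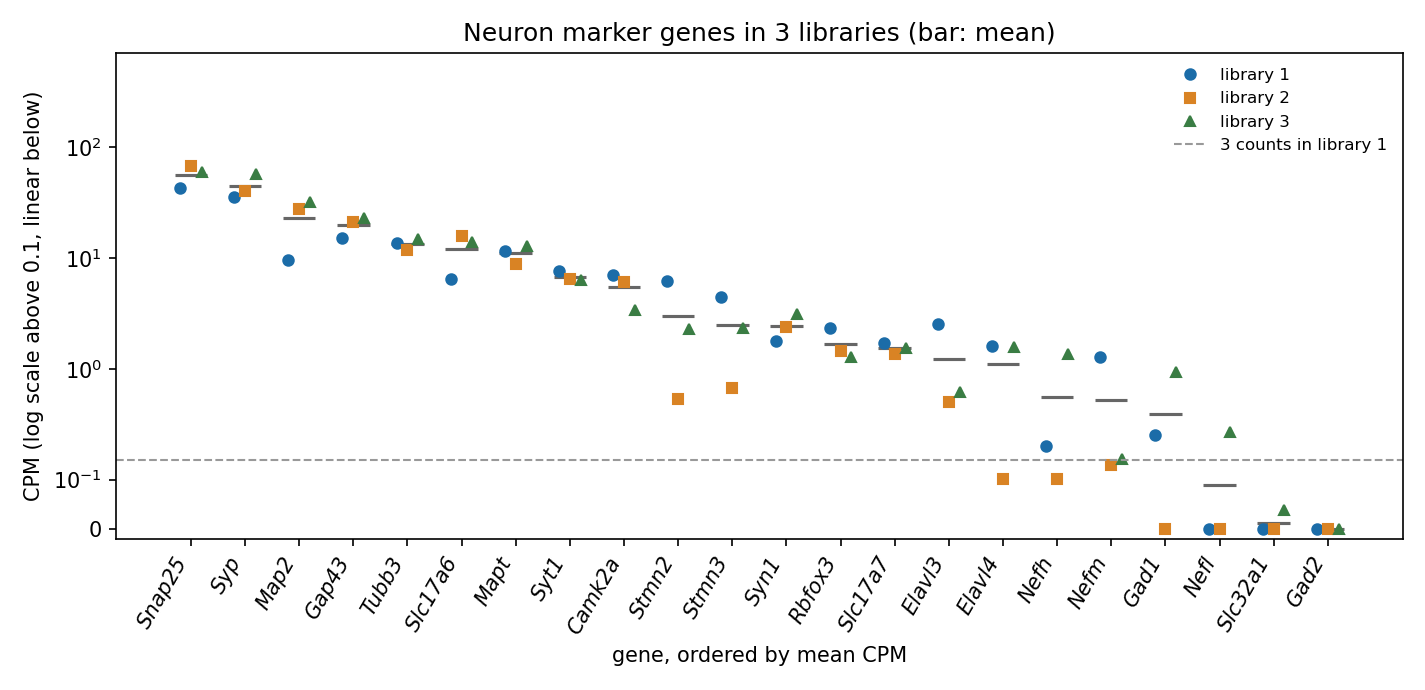
Each point is the CPM of a neuron marker gene in 1 library (log axis above 0.1, linear below), the bar is the mean, and the dashed line is the level of 3 counts in library 1. Snap25 and Syp lead at 34.9 to 67.2 CPM, while Gad2 lies at 0 in every library.

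Genes that give a neuron its transmitter were uneven. Slc17a6 (VGLUT2), the vesicular glutamate transporter of subcortical and sensory neurons, was at 6.47, 15.8 and 13.8 CPM. Slc17a7 (VGLUT1), its cortical counterpart, was at 1.72, 1.34 and 1.54 CPM, steady between libraries. Slc17a6 lay above Slc17a7 in each library, with 7.07 ± 3.40 against 0.871 ± 0.031 TPM (SD, n = 3). The GABA genes were nearly missing. Gad2, a glutamate decarboxylase, had no count in any library, Slc32a1, the vesicular GABA transporter, had 0, 0 and 1, and Gad1, the other decarboxylase, had 5, 0 and 24. Such counts were at or near the floor except for Gad1 in library 3, at 0.925 CPM.

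The nuclear and cytoplasmic RNA-binding proteins that mark neurons were low. Rbfox3 (NeuN) was at 2.32, 1.44 and 1.27 CPM, Elavl3 (HuC) at 2.53, 0.504 and 0.617 CPM, and Elavl4 (HuD) at 1.62, 0.101 and 1.58 CPM. Library 2 was lowest for both Elavl genes and held only 3 counts of Elavl4, but for Elavl3 libraries 2 and 3 were alike. Neurofilament transcripts, which fill large axons, were scarcer still and did not move together. Nefl had 0, 0 and 7 counts, Nefm 25, 4 and 4, and Nefh 4, 3 and 35. Nefl and Nefm share 1108 exon bases on opposite strands, 32.8% of the exon bases of Nefl and 19.2% of those of Nefm, so reads there may have been left out as ambiguous and the levels of both are uncertain.

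Microtubule genes split into an even and an uneven set. Tubb3, the neuronal beta-tubulin, was at 13.5, 11.7 and 14.7 CPM, and Mapt (tau) at 11.5, 8.70 and 12.8 CPM. Both stayed within 1.5-fold across libraries. Map2, a dendritic microtubule protein, was at 9.55, 27.4 and 31.5 CPM, lowest in library 1. The stathmins, which bind tubulin in growing neurites, were lowest in library 2, with Stmn2 at 6.16, 0.538 and 2.27 CPM and Stmn3 at 4.40, 0.672 and 2.35 CPM. Library 1 exceeded library 2 by 11.5-fold for Stmn2 and 6.54-fold for Stmn3, on counts of 122 against 16 and 87 against 20. Gap43, a growth cone protein that glia also make, was at 15.0, 20.8 and 22.8 CPM, and Camk2a, a kinase of excitatory synapses, at 7.02, 6.08 and 3.39 CPM. Those 2 genes differed by at most 2.07-fold between libraries.

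Variation between libraries was tested with edgeR over all 14409 genes past the filter, by goodness of fit to the dispersion of genes of like abundance. With nothing in the labels on separate animals, its p-values measure only the spread between these libraries, which may be technical. Of the 36 genes, 27 passed the filter, 12 astrocyte and 15 neuron genes, and 1 was called variable, where 0.437% of all tested genes were. That gene was Mlc1 (edgeR goodness of fit, adjusted p = 0.023). Aqp4 (adjusted p = 0.156, edgeR) and Stmn2 (adjusted p = 0.245, edgeR), with 7.98- and 11.5-fold between their highest and lowest libraries, did not pass. At an unadjusted p below 0.05 there were 5 of the 27 genes, against 7.04% of all tested. The call on Mlc1 rested on library 3: without it the adjusted p was 0.998 and its mean fell from 2.64 to 0.540 CPM. Without library 1 the adjusted p was 0.0623, and without library 2 the gene did not pass the filter. With no filter, or with a mean count of at least 10 required, its adjusted p was 0.169 and 0.106. After trends with GC content and exon length were removed, Mlc1 (adjusted p = 0.00174) and Stmn2 (adjusted p = 0.00276) both passed, where 0.723% of tested genes were called (edgeR).

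Because library 1 moved with GC content, each gene was set beside genes of its own GC class. Map2, with 47.8% GC, had a log2 ratio of -1.63 between library 1 and the average of the others, and its class a median of -0.27. Mlc1 (-3.04, class 0.26) lay further below its class than Map2, on 9 counts in library 1. Aldh1l1 (-0.90, class 0.38) and Syn1 (-0.64, class 0.41) also lay below theirs. Slc17a6 (-1.19, class -0.77), Fabp7 (-1.33, class -0.77) and Slc1a2 (-1.42, class -0.43) were nearer to their classes than Map2 was. Snap25, at 38.7% GC, was less reduced in library 1 (-0.56) than its class (-1.27). Stmn2 (2.13), of the same class as Snap25, and Elavl3 (2.17, class 0.38) were higher in library 1 than their classes. With both trends removed Map2 was at 11.05, 23.5 and 31.6 CPM, still lowest in library 1. Of the 27 genes past the filter, 17 kept their order of libraries after removal, among them Mlc1 (0.410, 0.688 and 7.04 CPM) and Stmn2 (9.47, 0.408 and 1.95 CPM). The other 10 did not. Snap25 turned from lowest to highest in library 1 (77.2, 45.9 and 47.8 CPM), and Aqp4 (0.855, 0.432 and 3.82 CPM) exchanged libraries 1 and 2 but stayed highest in library 3.

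**Figure D3:**
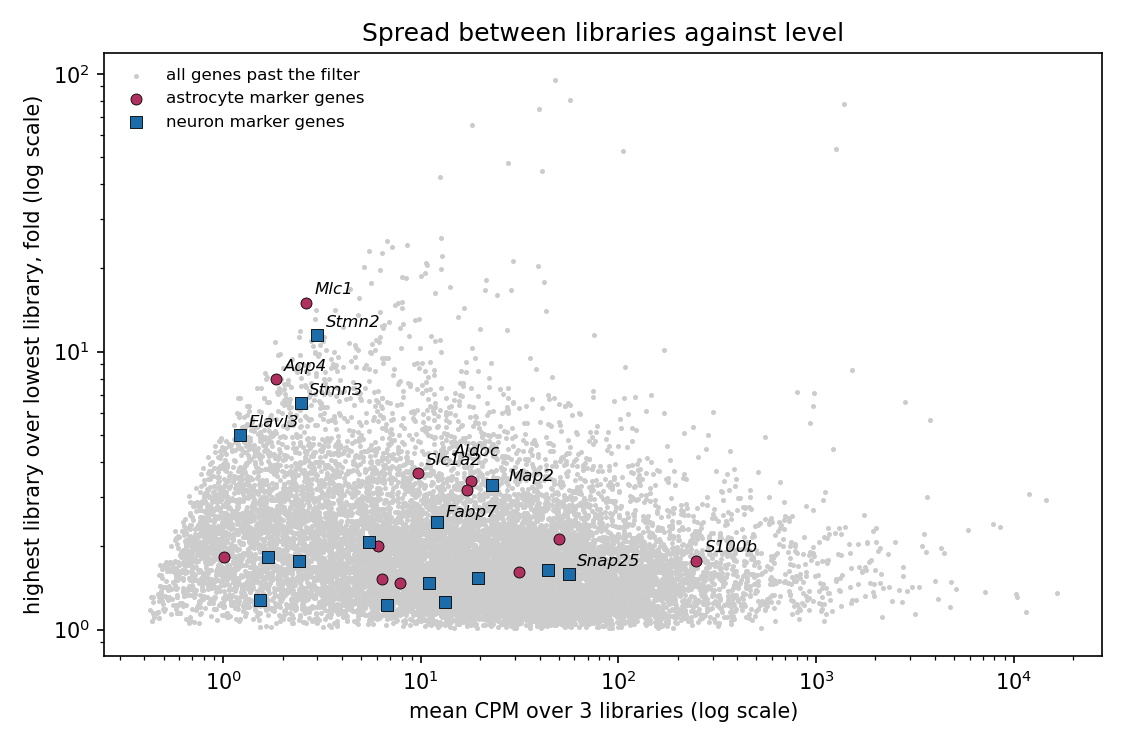
Each point is a gene past the filter, with its mean CPM on the x axis and the fold between its highest and lowest library on the y axis, both log scales; grey points are all 14409 genes. Mlc1 and Stmn2 lie at 15.0- and 11.5-fold near the upper edge for their level, and most other marker genes lie within the grey cloud.

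The fold between the highest and the lowest library had a median of 2.06 over the 12 astrocyte genes past the filter and 1.77 over the 15 neuron genes, against 1.72 over all tested genes. Library 3 was the highest for 9 of the 12 astrocyte genes and 6 of the 15 neuron genes, against 27.6% of all genes past the filter. Fold values above 3 were found for 5 astrocyte and 4 neuron genes, and for 13.7% of all genes past the filter. Folds below 1.5 were found for Gfap of the astrocyte genes and for Syt1, Tubb3, Mapt and Slc17a7 of the neuron genes. The 10 fibroblast genes used for comparison had a median of 1.26, with 8 below 1.5.

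Other marker lists were read for the same libraries. Of 20 further astrocyte genes, 0 of the 15 past the filter were called variable, where 0.437% of all tested genes were. On that list 18 genes had a mean of at least 1 CPM and 5 exceeded 100 CPM, against 56.6% and 1832 of the 25083 genes with a count. The most abundant on the list were Gja1, a gap junction protein (1143, 1464 and 678 CPM), and Glul, glutamine synthetase (881, 493 and 365 CPM). Both were lowest in library 3, where Mlc1 and Aqp4 were highest. A few low genes were, like Mlc1, highest in library 3, and were picked out after their values were seen. Grm3, a metabotropic glutamate receptor, was at 0, 0 and 4.97 CPM, and Bcan, the brain matrix proteoglycan brevican, at 2.68, 0.034 and 9.29 CPM. Gpr17 of oligodendrocyte precursors was at 2.27, 0.302 and 19.5 CPM and P2ry12 of microglia at 0.960, 1.61 and 23.1 CPM. Their lower libraries differed: Bcan and Gpr17 were lowest in library 2, and P2ry12 in library 1. The part of the cells these genes mark in the levels of Mlc1 and Aqp4 was not tested.

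Macrophage and microglia genes were read next. Of 10 such genes, 9 passed the filter, 7 of them lowest in library 1, and 6 were called variable, against 0.437% of all tested genes. C1qb, a complement gene named after its values were seen, was at 1.62, 39.2 and 130 CPM. The list summed to 925, 930 and 1224 CPM, most of it Tmem119 (809, 596 and 544 CPM), which was highest in library 1. C1qb was higher in library 2 than in library 1, whereas Mlc1, Aqp4 and P2ry12 differed little there. Of the 10 central oligodendrocyte genes, 5 had a mean of at least 1 CPM, against 56.6% of the 25083 genes with a count. The list summed to 82.1, 117 and 187 CPM. Most of it was Mobp (45.2, 40.7 and 57.5 CPM) and Aspa (29.4, 73.9 and 101 CPM). Mog, a defining myelin gene named after its values were seen, was at 0.303, 0 and 0.656 CPM. All 9 Schwann cell genes past the filter were highest in library 3, against 27.6% of all genes past the filter. Egr2, a transcription factor of myelination, was at 161, 120 and 208 CPM, and the list summed to 1016, 810 and 1621 CPM. Of the 9, 1 was called variable, against 0.437% of all tested genes. It was Cdh19, at 3.54, 23.9 and 58.7 CPM (edgeR goodness of fit, adjusted p = 0.00158). S100b, which Schwann cells share with astrocytes, was instead highest in library 1; the part of Schwann cells in its level was not tested.

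Of 20 further neuron genes, 0 of the 16 past the filter were called variable, where 0.437% of all tested genes were. On that list 17 genes had a mean of at least 1 CPM and none reached 100 CPM, against 56.6% and 1832 of the 25083 genes with a count. The leading gene of the list was Vamp2, a vesicle SNARE, at 76.7, 58.7 and 44.4 CPM. Like Snap25, Syp and Syt1, and like most tested genes, it had counts in all libraries and no call. Its glutamate receptor genes were Grin1, the shared NMDA receptor subunit, at 0.253, 0.672 and 0.424 CPM, and Gria2, an AMPA receptor subunit, at 0.505, 0.134 and 3.20 CPM, highest in library 3. Ina, an axonal filament gene chosen after its values were seen, was at 2.73, 0.974 and 0.617 CPM, highest in library 1 as were Stmn2, Stmn3, Elavl3 and Nefm. Of 14 genes of peripheral neurons, 4 had a mean of at least 1 CPM and 2 had no count in any library. Calca, the precursor of the peptide CGRP, was at 16.1, 28.7 and 58.3 CPM and Th, the enzyme of catecholamine synthesis, at 17.1, 6.69 and 12.6 CPM, whereas the sensory channel Scn10a and the noradrenergic enzyme Dbh were at 0 throughout. The list summed to 39.9, 46.6 and 76.9 CPM, and its part in the neuron genes was not tested.

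**Figure D4:**
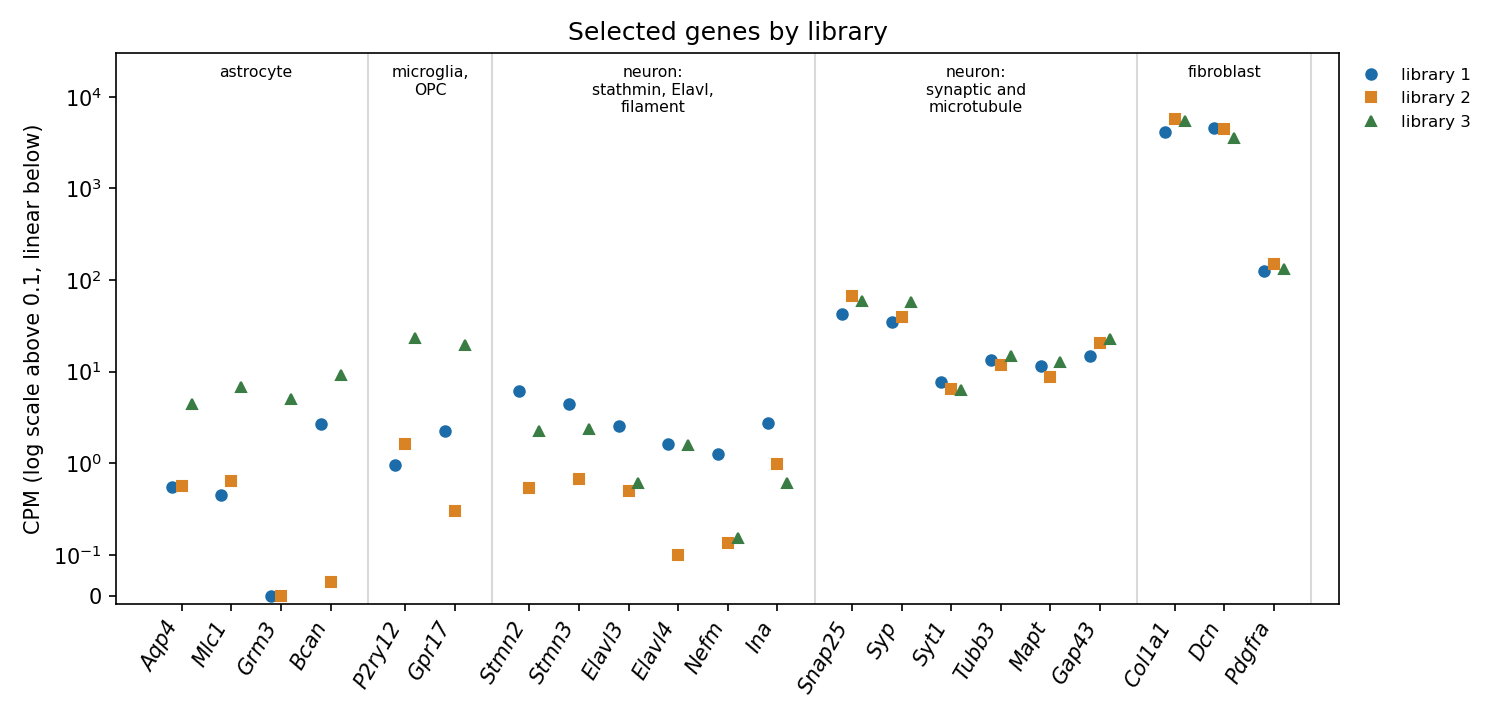
CPM of genes selected with their values known, in each library (log axis above 0.1, linear below). The groups do not follow the lists. Microglia and oligodendrocyte precursor cell (OPC) genes share a group, and neuron genes are split into stathmin, Elavl and filament genes and synaptic and microtubule genes. Map2 and Slc17a6, with 3.30- and 2.44-fold between their highest and lowest libraries, are not shown. Aqp4, Mlc1, Grm3, P2ry12 and Gpr17 have library 3 on top, Stmn2, Stmn3, Elavl3, Nefm and Ina have library 1 on top, and the other synaptic, microtubule and fibroblast genes shown lie closer together.

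A last comparison used sequence, since the abundant and the scarce markers can be set beside their promoters. RefSeq promoter windows on GRCm38.p6, 250 bases before to 50 after a start, were found for 27 of the 36 genes. The 15 windows of 13 astrocyte genes had a median of 3 CpG dinucleotides, and the 19 windows of 14 neuron genes a median of 13, against 7 over all 32851 windows. Of the astrocyte windows 4 exceeded that median of all windows, and of the neuron windows 12. S100b, the most abundant gene, and Mlc1, the variable one, are shown with Syp, a neuron gene without a call. Their windows hold few and many CpG, with 3, 3 and 18, where astrocyte windows ran from 1 to 50 and neuron windows from 3 to 37. The windows lie at chr10:76253586-76253885 (plus strand), chr15:88978504-88978803 (minus) and chrX:7638330-7638629 (plus), and capitals mark CpG.
S100b: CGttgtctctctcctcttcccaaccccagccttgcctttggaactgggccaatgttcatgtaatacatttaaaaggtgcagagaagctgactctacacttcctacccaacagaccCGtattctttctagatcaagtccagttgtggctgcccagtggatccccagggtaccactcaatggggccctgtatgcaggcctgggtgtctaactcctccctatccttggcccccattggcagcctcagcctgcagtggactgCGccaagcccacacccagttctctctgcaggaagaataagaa
Mlc1: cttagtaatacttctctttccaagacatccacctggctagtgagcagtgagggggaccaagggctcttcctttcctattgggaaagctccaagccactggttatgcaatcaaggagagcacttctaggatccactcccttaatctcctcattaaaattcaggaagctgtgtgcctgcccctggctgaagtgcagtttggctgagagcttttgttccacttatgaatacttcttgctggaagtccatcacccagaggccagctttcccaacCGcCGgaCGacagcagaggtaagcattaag
Syp: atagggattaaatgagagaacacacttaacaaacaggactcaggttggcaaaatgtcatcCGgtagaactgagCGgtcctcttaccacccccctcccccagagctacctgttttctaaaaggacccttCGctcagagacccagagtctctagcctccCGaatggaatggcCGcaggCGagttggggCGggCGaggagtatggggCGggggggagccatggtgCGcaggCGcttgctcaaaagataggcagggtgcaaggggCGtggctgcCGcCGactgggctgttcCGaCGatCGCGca
As many CpG as in the S100b and Mlc1 windows, or more, were found in 76.7% of all windows, and as many as in that of Syp in 29.7%. S100b and Mlc1 thus had equal CpG counts at mean levels of 248 and 2.64 CPM, and Gad2, without a count in any library, had 14 CpG.

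The element RE1 binds the factor REST, which holds neuronal genes silent in other cells. Its half-site TTCAGCACC, searched on both strands, was present in 1 neuron window, that of Syn1, in no astrocyte window, and in 0.371% of all windows. The Syn1 window is shown because it is the one with this match, in capitals (chrX:20920869-20921168, minus strand).
Syn1: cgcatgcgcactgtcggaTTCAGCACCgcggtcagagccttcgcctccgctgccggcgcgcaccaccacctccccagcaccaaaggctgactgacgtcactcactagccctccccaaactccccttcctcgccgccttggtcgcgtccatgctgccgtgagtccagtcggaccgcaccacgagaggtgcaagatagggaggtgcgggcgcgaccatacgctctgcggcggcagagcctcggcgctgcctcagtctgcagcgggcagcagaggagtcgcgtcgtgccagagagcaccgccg
Syn1 was the least abundant of the 4 vesicle genes among the 22 by mean CPM. Per exon length Syn1 (2.30 ± 0.771 TPM) and Syt1 (2.49 ± 0.116 TPM) could not be told apart (SD, n = 3 each). The match is a run of letters and no binding was measured.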

How the data were processed

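RNA of 3 libraries was amplified as cDNA with a template-switching kit and sequenced as paired reads, per the labels' protocols. The values were raw counts per gene as deposited by the authors, whole numbers with different totals. HTSeq 0.5.3, DESeq2 1.22.1 and the build mm10 are named in the submitters' processing notes, without their roles; the aligner, annotation release and strand setting are not given in the sources used here. Counter rows for reads given to no gene (45.6%, 39.1% and 39.6% of the table totals) were left out. No column lacked a sample.

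TMM scaling of library sizes used edgeR 4.0.16 (R 4.3.3), and filterByExpr with a minimum count of 10 left 14409 genes. Of the 46983 gene identifiers, 46488 matched GENCODE M21, which gave exon lengths, GC content and coordinates. As 1 group offers no contrast for a quasi-likelihood test, goodness of fit to edgeR's trended dispersion was tested, with Benjamini-Hochberg adjustment over all genes and a threshold of 0.05, and was tested on simulated data. List medians used a pseudocount of 1 CPM. Alternatives were DESeq2 1.42.0 size factors, plain totals, other filters, a common dispersion, removal of GC and length trends (mgcv), TPM, and each library left out. Members and 13 comparison lists with 141 genes were chosen with earlier results of these data known. All 36 members were named, and of each comparison list the 2 most abundant genes or those said to be chosen later; some values are not reported here. Members got no test as a list.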

Additional observations from a re-analysis of the deposited data

How the results depend on the processing

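The count of 1 marker gene called variable (edgeR goodness of fit) stayed at 1 with DESeq2 size factors and plain totals. It was 0 with no filter and 0 with a mean count of at least 10, where 25083 and 16392 genes were tested and 4 members had an unadjusted p below 0.05 in each, and 2 with a common dispersion (Aqp4 added) and 2 with the GC and length trends removed (Stmn2 added). With each replicate left out in turn it was 0 (lowest 0, highest 0), on fewer samples, while all genes called were 27, 28 and 12 and members at an unadjusted p below 0.05 were 5, 3 and 3. The numbers of astrocyte and neuron genes at 1 CPM were 9 to 12 and 12 to 16 over the alternatives. The astrocyte minus neuron median of 1.23 became 0.33 with members past the filter only, which drops the lowest neuron genes, and lay between 0.86 and 1.65 otherwise. All 180 alternative values of the members' mean CPM lay within 1 SD of their main value, which is no measure of stability. Leaving 1 library out of 3 can hardly move a mean by more than the SD of the same 3 values. Without library 3 the mean of Mlc1 fell from 2.64 to 0.540 CPM and that of Aqp4 from 1.85 to 0.557 CPM, both within that limit. No paired analysis was possible because there is only 1 group. Depth limited the values of Sox21, Slc32a1, Gad2 and Nefl, each with at most 7 counts in any library.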

Other observations

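Single genes often used to mark other brain cells were abundant in libraries where other genes of the same list were near 0. Mobp of the central oligodendrocyte list was at 45.2, 40.7 and 57.5 CPM and Aspa at 29.4, 73.9 and 101 CPM, whereas Hapln2 was at 0.051, 0 and 0.039 CPM. Tmem119 of the microglia list was at 809, 596 and 544 CPM, highest in library 1, where Csf1r, the receptor that defines macrophages, was at 1.16 CPM against 31.5 and 86.9 CPM in libraries 2 and 3. These genes were picked out after their values were seen, and no cause was tested.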
